A study of Mus musculus with 16 samples.

Results

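A set of 10 genes that mark injury and repair of the kidney tubule was followed through RNA of glomerular preparations, namely Havcr1, Lcn2, Gdf15, Spp1, Clu, Krt8, Krt18, Sox9, Cd44 and Tmsb10. They were chosen by name, with earlier results of these data known, and all 10 were found among the 25791 gene symbols of the expression table. There were 7 RAAS-blocked and 9 untreated libraries, each taken to be that of a separate mouse, which the labels do not state library by library. The RAAS-blocked mice drank lisinopril at 20 mg/day, an inhibitor of angiotensin-converting enzyme, together with losartan at 30 mg/day, which blocks the type 1 receptor of angiotensin II, from 10 to 12 weeks until 26 weeks of age, so that the renin-angiotensin-aldosterone system (RAAS) was inhibited by 2 routes. The untreated mice received neither drug, and 26 weeks is recorded as the end point for them as well. All 16 mice carried the genotype eNOS-/-//db/db and ate a standard diet. They thus lacked endothelial nitric oxide synthase and had 2 mutant copies of the leptin receptor gene, a combination in which obesity and diabetes come with kidney disease. No mouse without diabetes was analysed here, so no value below shows a gene's level in a healthy kidney.

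Tubule cells that are damaged lose part of their transport functions and switch on a characteristic set of genes. Some of their products are shed or secreted and reach the urine, where the kidney injury molecule encoded by Havcr1 and the lipocalin encoded by Lcn2 are measured as injury markers. Others belong to the cytoskeleton, the cell surface or the transcription factors of cells that dedifferentiate and regrow. Several of the genes are also active elsewhere, Lcn2 in neutrophils, Cd44 and Tmsb10 in leukocytes, and Spp1, Clu, Krt8 and Krt18 in uninjured segments of the distal nephron.

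The labels give the tissue as kidney and describe RNA of glomeruli pulled out with a magnet after iron had been perfused. These preparations carried tubule RNA in amounts that varied between mice. Nphs1, the podocyte gene for nephrin, ranged from 180.8 to 470.1 FPKM in RAAS-blocked mice and from 189 to 433 FPKM in untreated mice. The proximal tubule gene Slc34a1, which encodes a phosphate transporter, spanned 2.59 to 182 FPKM in RAAS-blocked mice and 6.70 to 241 FPKM in untreated mice. Umod of the thick ascending limb ranged from 107 to 527 FPKM in RAAS-blocked mice and from 193 to 1168 FPKM in untreated mice, and Aqp2 of the collecting duct from 17.2 to 515 FPKM in RAAS-blocked mice and from 52.8 to 545 FPKM in untreated mice. In such bulk samples fewer cells of a type and less RNA per cell cannot be told apart. Of the 13 tested leukocyte markers, all 13 had higher means in RAAS-blocked mice, with 0 past the threshold and 0 at an unadjusted limma p under 0.05. The mean level of that list was 4.08 to 5.96 log2 units in RAAS-blocked and 3.28 to 7.24 log2 units in untreated mice. All 10 mesangial and smooth muscle markers and all 6 tested fibroblast markers also had higher means in RAAS-blocked mice, with 0 past the threshold and 2 and 3 of them at an unadjusted limma p under 0.05. Some other lists had mostly lower means in RAAS-blocked mice, 11 of 12 endothelial, 11 of 13 tested podocyte and 15 of 20 proximal tubule markers. Of these, 0 passed the threshold and 1, 0 and 0 had an unadjusted limma p under 0.05. Of the tested neutrophil markers 6 were higher and 1 lower. Thick limb markers had 4 higher and 7 lower, distal and collecting duct markers 8 and 10, and parietal epithelial markers 1 and 5. None of these had an unadjusted limma p under 0.05. The only tested urothelial marker was lower, with an unadjusted limma p under 0.05. Over all tested genes 5944 had a higher and 7342 a lower mean, and 6.13% had an unadjusted limma p under 0.05. The library identifiers in the labels run without a gap within each group, so that anything that follows these identifiers and the treatment cannot be told apart. Absolute depth is unknown because the table holds no counts. The library labelled RAAS-blocked replicate 4 stood apart from its group. It had 16919 symbols above 0 FPKM, against 17993 to 18613 in the other 15. Its Ren1, the renin gene, was at 33.5 FPKM, against 443 to 1584 FPKM in the other 6 RAAS-blocked mice and 6.92 to 263 FPKM in untreated mice. Results that rest on it are given with and without it.

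The 10 genes spanned more than 3 orders of magnitude in FPKM, which is scaled to transcript length. Levels can be compared between genes only roughly, because reads of overlapping genes may be mixed. By the median over all 16 libraries, Spp1 stood highest at 548 FPKM, followed by Clu at 269 FPKM, Tmsb10 at 206 FPKM, Lcn2 at 43.7 FPKM, Krt8 at 31.8 FPKM, Krt18 at 15.3 FPKM, Cd44 at 6.78 FPKM, Gdf15 at 6.22 FPKM, Havcr1 at 1.29 FPKM and Sox9 at 0.304 FPKM. The steps from Spp1 to Clu, from Tmsb10 to Lcn2 and from Krt8 to Krt18 held in 16 of 16 libraries. Other neighbours changed places. Clu exceeded Tmsb10 in 12 libraries, Lcn2 exceeded Krt8 in 12, Krt18 exceeded Cd44 in 11, Gdf15 exceeded Havcr1 in 14 and Havcr1 exceeded Sox9 in 13, while Cd44 exceeded Gdf15 in only 8 of 16, so that these 2 did not differ in level beyond their spread. Nearly all of these genes varied widely between mice of the same group. The standard deviation within groups had a median of 0.81 log2 units over the 9 tested genes, against 0.23 log2 units over all 13286 genes tested. The widest were Lcn2 and Cd44, each at 1.05 log2 units, above 97.7% of all tested genes in each case, and the narrowest was Tmsb10 at 0.40 log2 units.

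**Figure D1:**
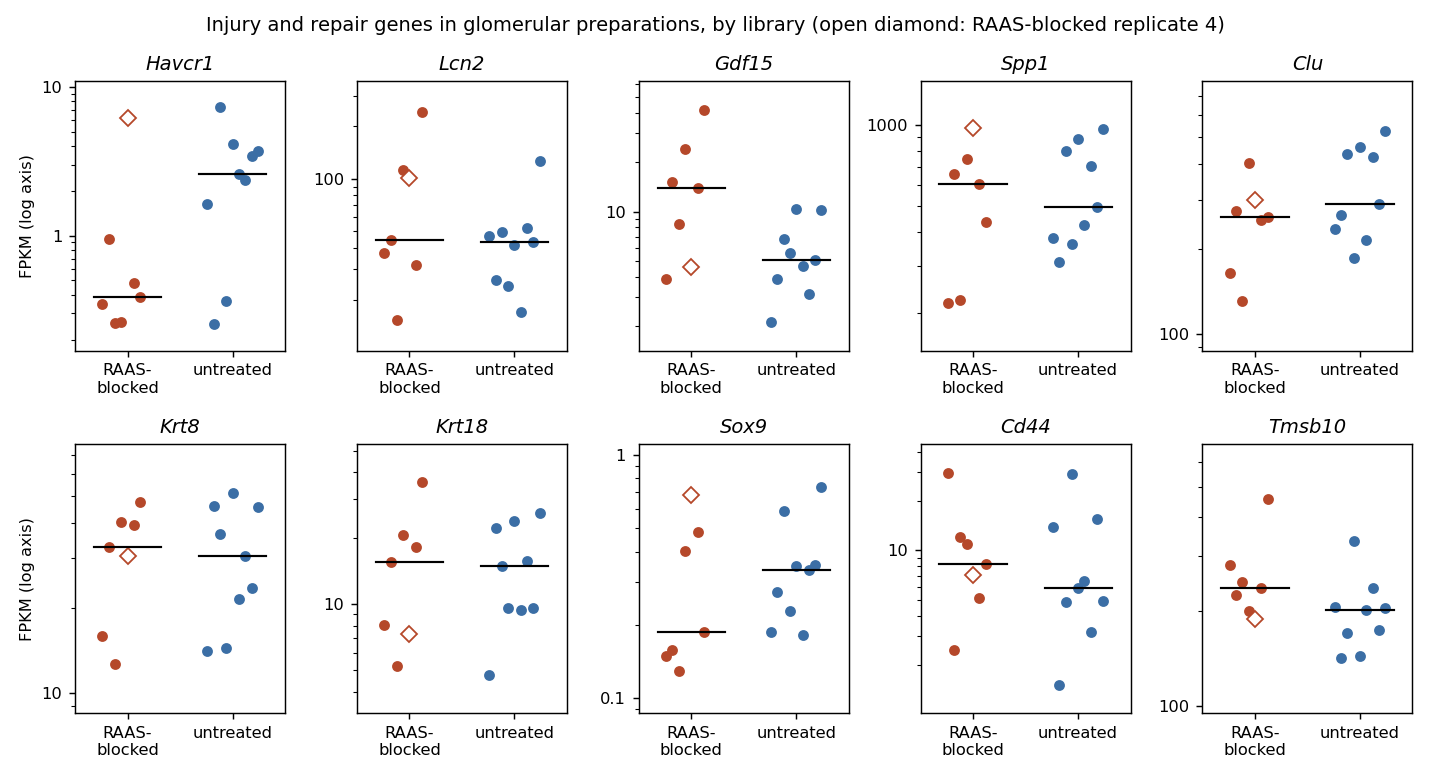
FPKM of the 10 injury and repair genes in each library (log axis), with RAAS-blocked mice on the left and untreated mice on the right of each panel; horizontal lines are group medians and the open diamond is the library labelled RAAS-blocked replicate 4. Havcr1 of that library lies at 6.20 FPKM above the other RAAS-blocked libraries, which reach 0.944 FPKM, and 4 RAAS-blocked libraries lie above all untreated ones for Gdf15.

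None of the genes passed the threshold between treated and untreated mice. The 9 that reached 1 FPKM in 7 or more of the libraries were tested with limma on log2(FPKM + 1), with p-values adjusted by the Benjamini-Hochberg method over all 13286 tested genes and a threshold of 0.05. Of the 9, 0 were called, where 0.0151% of all tested genes were called (2 genes, 0.00753% as higher and 0.00753% as lower in RAAS-blocked mice). At an unadjusted p under 0.05 limma took 1 of the 9, Gdf15, against 6.13% of all tested genes (2.71% higher and 3.42% lower in RAAS-blocked mice), and an exact Wilcoxon rank-sum test with the same adjustment called 0 genes in all. The 2 groups overlapped for every one of the 10 genes. Among all tested genes, 0.0376% had every RAAS-blocked library above every untreated one and 0.0226% had every RAAS-blocked library below. Of the 9 fitted differences 5 were above 0 and 4 below, with a median of 0.0022 log2 units, against a median of -0.017 log2 units over all tested genes.

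Havcr1 encodes a phosphatidylserine receptor that injured proximal tubule cells place on their surface and shed. It was low and ranged from 0.261 FPKM through a median of 0.388 FPKM to 6.20 FPKM in RAAS-blocked mice, and from 0.253 FPKM through a median of 2.59 FPKM to 7.28 FPKM in untreated mice. Of the RAAS-blocked mice 6 lay at or below 0.944 FPKM, and the highest value belonged to the library labelled RAAS-blocked replicate 4. Of the untreated mice 7 lay between 1.63 and 7.28 FPKM and the other 2 at 0.253 and 0.364 FPKM. The mean was 1.27 ± 2.19 FPKM in RAAS-blocked mice (SD, n = 7) and 2.86 ± 2.15 FPKM in untreated mice (SD, n = 9). Without replicate 4 the RAAS-blocked mean was 0.447 ± 0.257 FPKM (SD, n = 6), and 7 of the 9 untreated mice lay above all 6. The share of all tested genes with such a pattern was not computed. The fitted difference, RAAS-blocked minus untreated, was -0.88 ± 0.42 log2 units (SE; limma unadjusted p = 0.0539, adjusted p = 0.817). Without replicate 4 it was -1.21 log2 units (limma unadjusted p = 0.00367, adjusted p = 0.459). Leaving out that library therefore enlarged the difference without bringing it past the threshold over all genes. The Havcr1 value of replicate 4 is itself flagged below, so leaving that library out is not a choice independent of that value.

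Lcn2 encodes a lipocalin that binds iron-loaded siderophores and is stored in neutrophil granules as well as induced in the distal nephron. It ranged from 15.3 FPKM through a median of 44.2 FPKM to 243 FPKM in RAAS-blocked mice, and from 17.1 FPKM through a median of 43.3 FPKM to 126 FPKM in untreated mice. The medians nearly coincided, and the high values sat in single mice, RAAS-blocked replicates 6, 3 and 4 at 243, 112 and 101 FPKM and untreated replicate 8 at 126 FPKM. The fitted difference was 0.51 ± 0.49 log2 units (SE; limma adjusted p = 0.922). The summed FPKM of 12 neutrophil markers ran from 68.9 to 2392 in RAAS-blocked and from 29.4 to 878 in untreated mice. The highest sum was that of RAAS-blocked replicate 0, where Lcn2 was at 37.4 FPKM, and the next highest, 1068, was that of RAAS-blocked replicate 6, the mouse highest in Lcn2. The part of these cells in the level of Lcn2 was not tested.

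Gdf15 encodes a stress-induced cytokine distantly related to transforming growth factor beta, whose receptor gene Gfral reached at most 0.0281 FPKM. It ranged from 3.90 FPKM through a median of 13.9 FPKM to 41.7 FPKM in RAAS-blocked mice, and from 2.12 FPKM through a median of 5.08 FPKM to 10.3 FPKM in untreated mice. RAAS-blocked replicates 6, 3, 1 and 5, at 41.7, 24.1, 15.1 and 13.9 FPKM, lay above all 9 untreated mice, and no untreated mouse reached the RAAS-blocked median. The other 3 RAAS-blocked mice, replicates 2, 4 and 0 at 8.39, 4.57 and 3.90 FPKM, lay within the untreated range. The mean was 15.9 ± 13.3 FPKM in RAAS-blocked mice (SD, n = 7) and 5.76 ± 2.89 FPKM in untreated mice (SD, n = 9). All fits given next include RAAS-blocked replicate 6, the mouse highest in Gdf15, so how far they rest on that mouse is not shown. The fitted difference was 1.07 ± 0.41 log2 units (SE; limma unadjusted p = 0.0193, adjusted p = 0.745). It was 1.28 log2 units without the library labelled RAAS-blocked replicate 4 (limma unadjusted p = 0.00707, adjusted p = 0.518). With the level of distal and collecting duct markers as a covariate it was 1.11 ± 0.32 log2 units (SE; limma unadjusted p = 0.00319, adjusted p = 0.349). The mean level of those markers was 4.58 ± 0.81 log2 units in RAAS-blocked mice (SD, n = 7). In untreated mice it was 4.64 ± 0.80 log2 units (SD, n = 9). The part of distal and collecting duct content in the difference of Gdf15 was not tested.

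Spp1 encodes osteopontin, a secreted phosphoprotein that binds integrins and CD44. It ranged from 218 FPKM through a median of 601 FPKM to 969.9 FPKM in RAAS-blocked mice, and from 309.8 FPKM through a median of 495 FPKM to 965 FPKM in untreated mice. The lowest values were those of RAAS-blocked replicates 0 and 2, and the ranges otherwise coincided. The fitted difference was -0.18 ± 0.34 log2 units (SE; limma adjusted p = 0.955), with an interval of 2 SE from -0.86 to 0.50 log2 units. The symbol LOC100503439 followed Spp1 over the 16 libraries with a Pearson r of 0.98, at 1.51 to 2.41 times its FPKM. Whether the authors' counting divided reads between them is not known, so the level of Spp1 is uncertain.

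Clu encodes clusterin, a secreted chaperone. It ranged from 131 FPKM through a median of 259.7 FPKM to 404 FPKM in RAAS-blocked mice, and from 186 FPKM through a median of 289 FPKM to 527 FPKM in untreated mice. RAAS-blocked replicates 2 and 0, at 131 and 165 FPKM, lay below all untreated mice, and untreated replicates 8, 4, 2 and 6, at 527, 463, 437 and 424 FPKM, lay above all 7 RAAS-blocked mice. This gave a fitted difference of -0.40 ± 0.26 log2 units (SE; limma adjusted p = 0.867).

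Krt8 and Krt18 encode the type II and type I keratins that polymerise with each other into the filaments of simple epithelia. Krt8 ranged from 12.7 FPKM through a median of 32.9 FPKM to 47.4 FPKM in RAAS-blocked mice, and from 14.1 FPKM through a median of 30.5 FPKM to 51.1 FPKM in untreated mice. Krt18 ranged from 5.24 FPKM through a median of 15.6 FPKM to 35.9 FPKM in RAAS-blocked mice, and from 4.78 FPKM through a median of 14.9 FPKM to 25.9 FPKM in untreated mice. In both groups the 2 genes covered nearly the same range, with the single highest Krt18 value in RAAS-blocked replicate 6. The fitted difference was 0.0022 ± 0.32 log2 units for Krt8 (SE; limma adjusted p = 0.999) and -0.023 ± 0.38 log2 units for Krt18 (SE; limma adjusted p = 0.993). The interval of 2 SE ran from -0.65 to 0.65 log2 units for Krt8 and from -0.79 to 0.74 log2 units for Krt18, so that differences of this size are not resolved by these libraries. Krt8 exceeded Krt18 by 1.32 to 4.18 times. The highest ratio was that of the library labelled RAAS-blocked replicate 4, and the other 15 reached at most 2.95.

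The keratins are shown with their promoters because they varied closely together, with a Pearson r of 0.90 over the 16 libraries after removal of group means. Among all tested genes Krt8 stood only at rank 41 by r with Krt18, so other genes followed Krt18 more closely. The genes lie next to each other on mouse chromosome 15 and are transcribed away from each other, with starts 23874 bases apart. Of the 10 genes 8 had an entry in the RefSeq promoter table (GRCm38.p6), from which the 250 bases before each start are given 5′ to 3′ on the gene's own strand, Krt8 from chr15:102004343-102004592 (minus strand) and Krt18 from chr15:102027966-102028215 (plus strand). Capitals mark the E-box form CAGGTG, read here as its reverse complement CACCTG.
Krt8: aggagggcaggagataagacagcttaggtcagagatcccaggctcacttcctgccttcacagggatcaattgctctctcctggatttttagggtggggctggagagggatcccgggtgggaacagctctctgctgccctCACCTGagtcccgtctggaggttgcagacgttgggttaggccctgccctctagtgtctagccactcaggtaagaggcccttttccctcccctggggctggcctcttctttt
Krt18: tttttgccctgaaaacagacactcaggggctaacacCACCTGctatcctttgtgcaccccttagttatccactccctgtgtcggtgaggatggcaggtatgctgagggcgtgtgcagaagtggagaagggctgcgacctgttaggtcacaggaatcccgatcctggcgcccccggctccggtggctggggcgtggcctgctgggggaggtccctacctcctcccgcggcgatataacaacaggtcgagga
Both strands were searched for CAGGTG, for the AP-1 motif TGANTCA, for the GC box GGGCGG and for the TATA box TATAAA; no matches overlapped. CAGGTG, chosen after the sequences had been seen, occurred once in each promoter, 111 bases before the Krt8 start and 214 bases before the Krt18 start. It occurs in 17.2% of the 32851 promoters of the table. The other 3 motifs had 0 matches in either, and occur in 6.75%, 32.7% and 12.4% of promoters. The matches describe letters in these windows and were not tested for binding.

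Sox9, a transcription factor of regrowing tubule cells, ranged from 0.130 FPKM through a median of 0.188 FPKM to 0.683 FPKM in RAAS-blocked mice, and from 0.182 FPKM through a median of 0.335 FPKM to 0.739 FPKM in untreated mice. It stayed below 1 FPKM in all 16 libraries and was not tested. The lowest 3 values were RAAS-blocked, and the highest RAAS-blocked value was that of the library labelled replicate 4, as for Havcr1 and Spp1.

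Cd44 encodes a surface receptor for hyaluronan and osteopontin. It ranged from 2.46 FPKM through a median of 8.28 FPKM to 29.9 FPKM in RAAS-blocked mice, and from 1.52 FPKM through a median of 5.86 FPKM to 29.1 FPKM in untreated mice. A single mouse stood high in each group, RAAS-blocked replicate 0 and untreated replicate 3. Between groups the fitted difference was 0.26 ± 0.49 log2 units (SE; limma adjusted p = 0.955).

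Tmsb10 encodes a small peptide that binds actin monomers. It ranged from 189.8 FPKM through a median of 238 FPKM to 458 FPKM in RAAS-blocked mice, and from 142 FPKM through a median of 202 FPKM to 335 FPKM in untreated mice. Only RAAS-blocked replicate 6 lay above all untreated mice, and 4 untreated mice lay below all 7 RAAS-blocked ones. The mean was 263 ± 90.9 FPKM in RAAS-blocked mice (SD, n = 7) and 202 ± 59.1 FPKM in untreated mice (SD, n = 9). The fitted difference was 0.37 ± 0.19 log2 units (SE; limma unadjusted p = 0.0718, adjusted p = 0.820), and 0.44 log2 units without the library labelled RAAS-blocked replicate 4 (limma adjusted p = 0.678). RAAS-blocked replicate 6, the highest, was part of each of these fits.

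**Figure D2:**
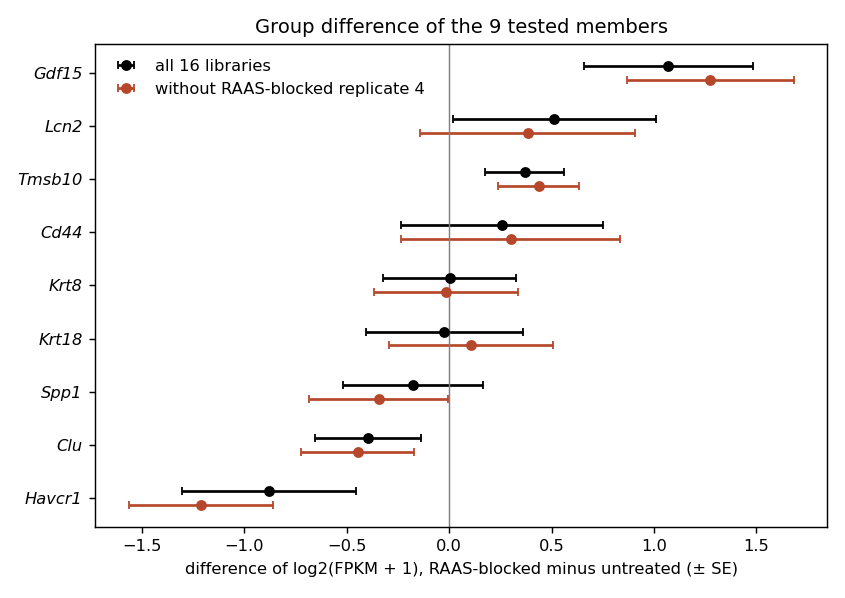
Fitted difference of log2(FPKM + 1), RAAS-blocked minus untreated, for the 9 tested genes, as point and SE bar; black uses all 16 libraries and red leaves out the library labelled RAAS-blocked replicate 4. Gdf15 lies at 1.07 and Havcr1 at -0.88 log2 units with all libraries, at 1.28 and -1.21 log2 units without that library, and Krt8 lies at 0.0022 log2 units.

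To describe the wide spread within groups, each gene was set against the amount of tubule and leukocyte RNA in its library. For 4 lists of cell type markers the mean log2(FPKM + 1) was taken as a level, and limma was fitted over all 13286 tested genes with group and that level as terms. The slope is in log2 units of the gene per log2 unit of the level, so that a slope of 1 means in step with the markers. Whether such a relation reflects the makeup of the preparation or the state of its cells was not tested.

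The level of distal tubule and collecting duct markers took the most of the genes. Of the 9, 4 were called and all 4 had positive slopes, where 27.3% of all tested genes were called, 15.9% with a positive and 11.4% with a negative slope. Krt18 had a slope of 0.88 ± 0.13 (SE; limma adjusted p = 2.1e-04) and Krt8 one of 0.70 ± 0.13 (SE; limma adjusted p = 0.00109), and both were called in all 16 fits that left out 1 library. Gdf15 had a slope of 0.72 ± 0.21 (SE; limma adjusted p = 0.0196), which passed the threshold no longer without the library labelled RAAS-blocked replicate 4 (limma adjusted p = 0.0545) or without untreated replicate 0 (limma adjusted p = 0.0552). Clu had a slope of 0.41 ± 0.14 (SE; limma adjusted p = 0.0389) and lost its call in 11 of those 16 fits, with adjusted p up to 0.0840. Spp1 had a slope of 0.35 ± 0.21 (SE; limma adjusted p = 0.232) and was called without the library labelled RAAS-blocked replicate 4, at 0.62 (limma adjusted p = 0.0201). Cd44 ran the other way with a slope of -0.75 ± 0.27 (SE; limma adjusted p = 0.0537). It was called without RAAS-blocked replicate 3, at -0.88 (limma adjusted p = 0.0363), and without the library labelled replicate 4, at -0.97 (limma adjusted p = 0.0223). Lcn2, Havcr1 and Tmsb10 had slopes of 0.27, -0.11 and -0.12 (limma adjusted p = 0.566, 0.800 and 0.519).

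In the RAAS-blocked mice taken alone the slope was 0.58 for Krt8 (limma adjusted p = 0.242) and 0.93 for Krt18 (limma adjusted p = 0.116), and 0 of the 9 were called, with 98 genes called in all. In the untreated mice taken alone Krt8 had a slope of 0.80 (limma adjusted p = 0.0026), Krt18 of 0.84 (limma adjusted p = 0.0040) and Cd44 of -1.01 (limma adjusted p = 0.0485). The difference between groups in these slopes was not tested.

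**Figure D3:**
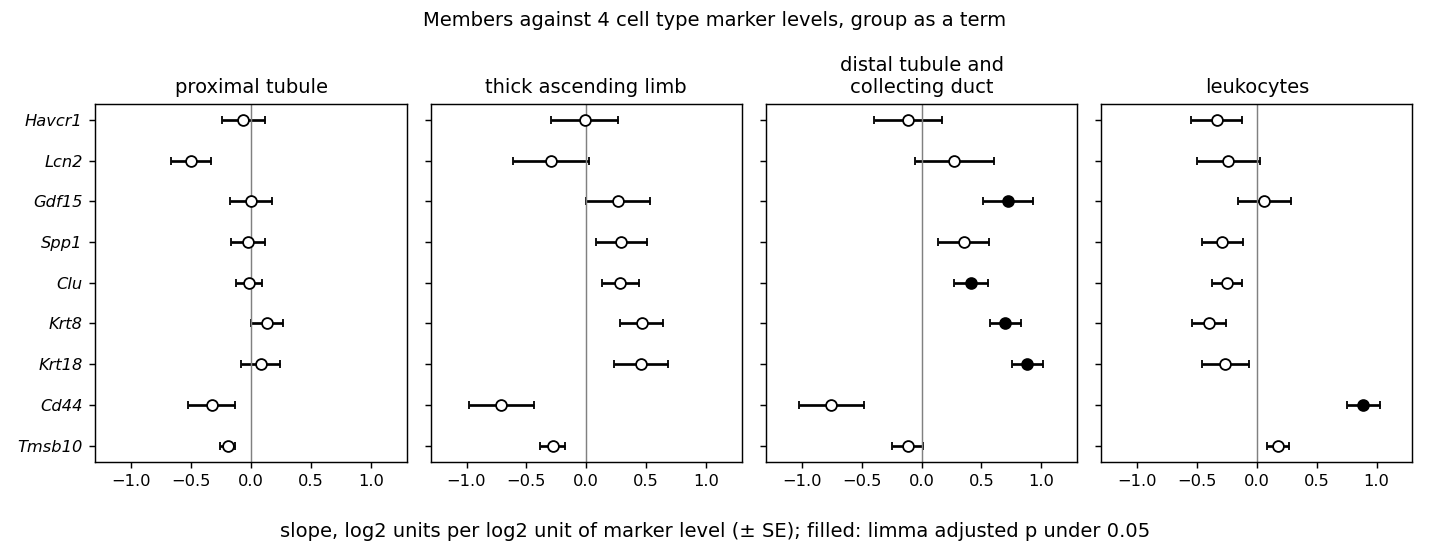
Slopes of the 9 tested genes on the mean level of 4 marker lists, in log2 units per log2 unit, with group as a term; points are slopes, bars are SE, and filled points passed a limma adjusted p of 0.05. Filled points are Krt18 (0.88), Gdf15 (0.72), Krt8 (0.70) and Clu (0.41) on the distal tubule and collecting duct level and Cd44 (0.89) on the leukocyte level.

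Leukocyte markers took 1 of the 9 genes, Cd44, where 4.88% of all tested genes were called, 4.58% with a positive and 0.294% with a negative slope. Cd44 had a slope of 0.89 ± 0.14 (SE; limma adjusted p = 6.2e-04), and it was called in all 16 fits that left out 1 library. The mice highest in Cd44, RAAS-blocked replicate 0 at 29.9 FPKM and untreated replicate 3 at 29.1 FPKM, were also highest of their groups in Ptprc, the pan-leukocyte gene for CD45, at 31.3 FPKM in RAAS-blocked replicate 0 and 41.0 FPKM in untreated replicate 3. With the leukocyte level as a covariate the difference of Cd44 between groups changed sign, to -0.14 log2 units (limma adjusted p = 0.959), against 0.26 log2 units without it. In RAAS-blocked mice alone the slope was 0.92 (limma adjusted p = 0.726), and in untreated mice alone it was 0.88 (limma adjusted p = 0.0033). Krt8 had a slope of -0.40 ± 0.14 (SE; limma adjusted p = 0.160), and Tmsb10 one of 0.18 ± 0.09 (SE; limma adjusted p = 0.376).

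Proximal tubule markers took 0 of the 9 genes, where 10.0% of all tested genes were called by limma (7.90% with a positive and 2.12% with a negative slope). At an unadjusted limma p under 0.05 were 2 of the 9, against 3333 of all 13286 tested genes, a like share. The 2 were Lcn2 with a slope of -0.50 ± 0.17 (SE; limma adjusted p = 0.0735) and Tmsb10 with one of -0.19 ± 0.07 (SE; limma adjusted p = 0.0709). Tmsb10 was called without the library labelled RAAS-blocked replicate 4, at -0.21 (limma adjusted p = 0.0327). Havcr1, of the 10 the gene most closely tied to proximal tubule cells, had a slope of -0.06 ± 0.18 (SE; limma adjusted p = 0.865) on their marker level. The slopes on this level were also compared between RAAS-blocked and untreated mice with a product term. For Lcn2 it was -0.69 ± 0.34 (SE; limma adjusted p = 0.495). That test called 0 genes of 13286 (0% of all tested), with 1407 at an unadjusted p under 0.05, none of them among the 9. Without the library labelled RAAS-blocked replicate 4 it called 66 genes, without RAAS-blocked replicate 5 14 genes and without untreated replicate 6 1 gene, in each case with 0 of the 9.

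Thick limb markers took 0 of the 9 genes, where 20.4% of all tested genes were called by limma (14.0% with a positive and 6.32% with a negative slope). At an unadjusted limma p under 0.05 were 3 of the 9, against 4497 of all 13286 tested genes, a like share. Krt8 had a slope of 0.46 ± 0.18 (SE; limma adjusted p = 0.0805), Cd44 one of -0.71 ± 0.27 (SE; limma adjusted p = 0.0797) and Tmsb10 one of -0.28 ± 0.10 (SE; limma adjusted p = 0.0675). Single libraries decided these calls. Without RAAS-blocked replicate 6, 3 of the 9 were called, among them Krt8 at 0.64 (limma adjusted p = 0.0065) and Cd44 at -0.82 (limma adjusted p = 0.0474). Krt8 was also called without untreated replicate 8, at 0.53 (limma adjusted p = 0.0360), and Tmsb10 without the library labelled RAAS-blocked replicate 4, at -0.35 (limma adjusted p = 0.0141).

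**Figure D4:**
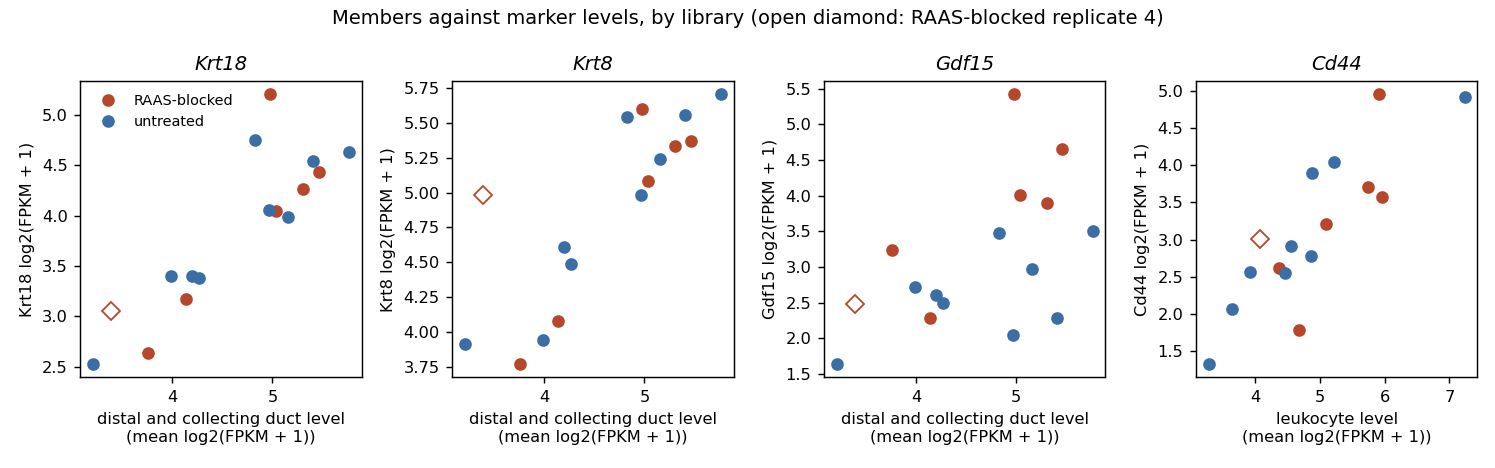
Krt18, Krt8 and Gdf15 against the mean level of distal tubule and collecting duct markers, and Cd44 against that of leukocyte markers, in log2(FPKM + 1) with 1 point per library; red is RAAS-blocked, blue is untreated and the open diamond is the library labelled RAAS-blocked replicate 4. Slopes with group as a term are 0.88 for Krt18, 0.70 for Krt8, 0.72 for Gdf15 and 0.89 for Cd44, and Krt8 of the open diamond lies above the other libraries of like distal level.

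Of the 36 pairs of tested genes, 23 had a Pearson r above 0 and 13 one below 0. The median was 0.37, over the 16 libraries after removal of group means. The share of positive pairs over all tested genes was not computed, so these counts do not set the genes apart. By r with Clu, Spp1 stood at rank 3 of all tested genes. By r with Krt8 it stood at rank 702 (r = 0.68). These values describe the same libraries, which share depth and tubule content. Beside the keratins, Clu and Spp1 had an r of 0.90, Clu and Krt8 of 0.82, and Gdf15 and Krt18 of 0.80. Havcr1 was closest to Spp1, at 0.70. Among these 9 genes, Cd44 had an r below 0 with all others but Tmsb10 (0.43), down to -0.70 with Krt8. Leaving out the library labelled RAAS-blocked replicate 4 gave 0.95 for the keratins, 0.92 for Clu and Spp1, 0.63 for Havcr1 and Spp1, and 0.67 for Gdf15 and Spp1, which had been 0.40 with it.

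**Figure D5:**
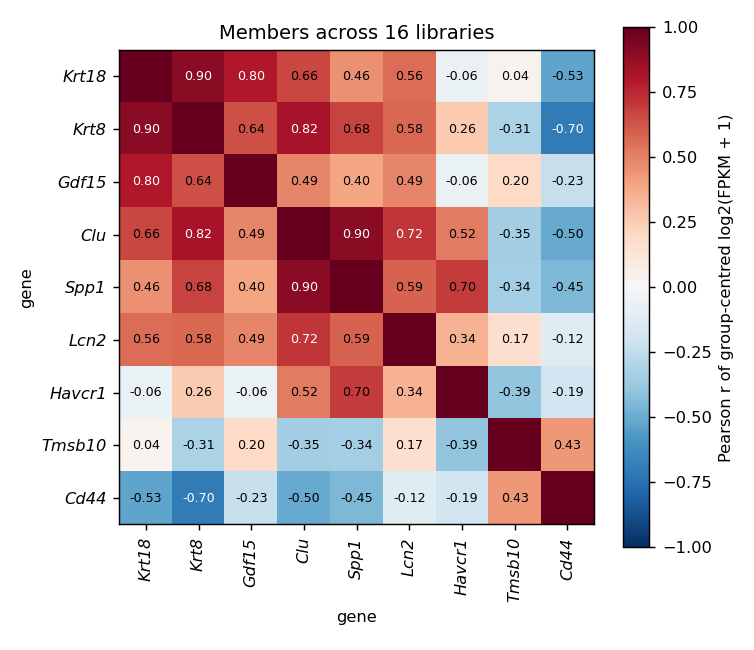
Pearson r between the 9 tested genes over 16 libraries, computed on log2(FPKM + 1) after removal of group means (red above 0, blue below 0, value printed in each cell). Krt8 with Krt18 and Clu with Spp1 reach 0.90, and Cd44 with Krt8 lies at -0.70.

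Beyond the 10 genes, the closest companions of each were sought among all tested genes. Krt18 varied most closely with Scnn1b (r = 0.96), Hsd11b2 (r = 0.96) and Muc1 (r = 0.95), of which the sodium channel subunit Scnn1b and the glucocorticoid-inactivating enzyme Hsd11b2 also belong to the distal and collecting duct list. Krt8 varied with AA986860 (r = 0.96), the tight junction claudin Cldn7 (r = 0.96) and Mal2 (r = 0.95). Cd44 varied with the haematopoietic genes Arhgap25 (r = 0.98) and Plek (r = 0.97) and the complement receptor C5ar1 (r = 0.97). Gdf15 varied with Mcoln3 (r = 0.90), Bmp3 (r = 0.88) and Hap1 (r = 0.88). Clu varied with Abp1 (r = 0.90) and Hebp2 (r = 0.90). Spp1 varied with Gpr180 (r = 0.89), Abp1 (r = 0.85) and Qrsl1 (r = 0.84). Lcn2 varied with Hebp2 (r = 0.87), Stx18 (r = 0.84) and Lsm1 (r = 0.83), and Tmsb10 with the tetraspanin Cd81 (r = 0.92), Agpat4 (r = 0.91) and Leprotl1 (r = 0.89). Havcr1 varied with Mphosph8 (r = 0.86), Rad17 (r = 0.84) and Crebzf (r = 0.83), and these fell to 0.75, 0.71 and 0.71 without the library labelled RAAS-blocked replicate 4. All of these are correlations over 16 libraries with group means removed.

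Of 28 genes for receptors, proteases, binding partners and relatives of the 10, 19 were tested, 11 with a higher and 8 with a lower mean in RAAS-blocked mice, and 0 were called or had an unadjusted limma p under 0.05. Their median difference was 0.04 log2 units. The lowest p belonged to Krt19, another simple epithelial keratin, which averaged 6.63 ± 4.52 FPKM in RAAS-blocked mice (SD, n = 7) and 3.07 ± 2.09 FPKM in untreated mice (SD, n = 9). Its fitted difference was 0.76 ± 0.41 log2 units (SE; limma adjusted p = 0.830). The hyaluronidase Hyal1, the transcription factor Sox4 and the integrin chain Itgb5 followed, with differences of -0.34, 0.16 and -0.27 log2 units. On the distal and collecting duct level 3 of the 19 had a called positive and 4 a called negative slope, with a median slope of -0.0062, where 15.9% of all tested genes had a called positive and 11.4% a called negative slope. Krt7 had a slope of 0.77 ± 0.06 (SE; limma adjusted p = 1.2e-06) and Krt19 one of 0.86 ± 0.17 (SE; limma adjusted p = 0.00166), alongside Krt8 and Krt18. The third was the integrin chain Itgb6, with a slope of 0.43 ± 0.11 (SE; limma adjusted p = 0.0108). The negative slopes were those of the shedding proteases Adam10 (-0.25, limma adjusted p = 0.00152) and Adam17 (-0.22, limma adjusted p = 0.0302) and the integrin chains Itgb1 (-0.22, limma adjusted p = 0.0110) and Itga9 (-0.42, limma adjusted p = 0.00236).

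A list of 38 other genes of injured tubule epithelium shared Krt7, Krt19 and Krt20 with the list before, so these count in each. Of the 38, 33 were tested, 22 with a higher and 11 with a lower mean in RAAS-blocked mice. Limma called 0 of them and 2 had an unadjusted p under 0.05, with a median difference of 0.09 log2 units. One was Cp, the copper-carrying ferroxidase ceruloplasmin, which averaged 68.6 ± 17.0 FPKM in RAAS-blocked mice (SD, n = 7) and 35.5 ± 18.6 FPKM in untreated mice (SD, n = 9), with a difference of 1.04 ± 0.26 log2 units (SE; limma adjusted p = 0.421). The other was the matrix metalloproteinase Mmp7, at 0.639 ± 0.404 FPKM in RAAS-blocked mice (SD, n = 7) and 1.61 ± 1.04 FPKM in untreated mice (SD, n = 9), with a difference of -0.60 ± 0.24 log2 units (SE; limma adjusted p = 0.755). The growth factor Pdgfb differed by 0.24 log2 units (limma adjusted p = 0.848). Of the 33, 7 had a called negative slope on the proximal tubule level (Vim, Anxa1, Anxa2, Anxa3, S100a10, Cyr61 and Tnfrsf12a) and 0 a positive one. Of all tested genes, 2.12% had a called negative and 7.90% a called positive slope on it. On the thick limb level 3 had a called positive (Krt7, Prom1 and Egfr) and 11 a called negative slope. Over all tested genes 14.0% had a called positive and 6.32% a called negative slope on it. On the distal and collecting duct level 5 had a called positive slope (Krt7, Krt19, Prom1, Fgg and Egfr). A called negative one was that of 3 (Cd24a, S100a6 and Plaur). These shares were close to those over all tested genes, 15.9% positive and 11.4% negative. On the leukocyte level 3 had a called positive slope and 0 a negative one, where 4.58% and 0.294% of all tested genes did. There Vcam1 had a slope of 1.06 ± 0.16 (SE; limma adjusted p = 5.5e-04), alongside Tgfbi and Hmox1.

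Of 23 stress and p53 response genes 21 were tested, 16 with a higher and 5 with a lower mean in RAAS-blocked mice, with a median difference of 0.05 log2 units. Myc, Sesn2, Ier3 and Asns had the lowest p, with differences of 0.39, -0.17, 0.21 and 0.18 log2 units. Of 21 proliferation genes 19 were tested, 9 with a higher and 10 with a lower mean, with a median difference of -0.01 log2 units. Tyms, Cenpa, Aurka and Pcna had the lowest p, with differences of 0.12, -0.25, 0.16 and 0.11 log2 units. In both lists limma called 0 genes and 0 had an unadjusted p under 0.05. Over all tested genes 5944 had a higher and 7342 a lower mean in RAAS-blocked mice.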

How the data were processed

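Glomerular RNA of 7 RAAS-blocked and 9 untreated mice was analysed, grouped by the treatment given in the labels. The authors deposited FPKM values, fragments scaled to transcript length and to the mapped fragments of the library, for 25791 symbols in 16 libraries. Cufflinks, Cuffdiff 2.2.1, TopHat2 2.0.8, FastQC and CASAVA 1.8.2 are listed, without roles, in the submitters' processing notes. The build, the annotation and the strand setting are not given in the sources used, and reads of overlapping or antisense genes may be mixed. The low FPKM values moved in steps that put 14 libraries at 1.13 to 1.74 times the depth of untreated replicate 0. For RAAS-blocked replicate 4 only 11 low genes were usable. Absolute depth is unknown. The labels do not state for each library that it is a separate mouse, and p-values measure only the variation among libraries.

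Values were tested as log2(FPKM + 1) with limma 3.58.1 in R 4.3.3 (mean trend and robust settings, Benjamini-Hochberg at 0.05), with the 13286 genes at 1 FPKM or more in at least 7 libraries. This scale compresses fold changes of genes with low values. Slopes used the mean log2 level of a marker list, with a gene left out of its own score. Correlations, ranges and ratios used Python 3.11.15 with pandas 2.3.3. The members and lists were chosen with earlier results of these data known. Named genes are all 10 members, up to 4 tested genes of each of 4 lists with the lowest p, the 3 tested genes most correlated with each member (predicted symbols and small RNAs left out), and Slc34a1, Umod, Aqp2, Nphs1 and Ptprc. A gene that this rule takes is not reported here. Ren1, LOC100503439 and the genes named for called slopes were chosen after their values were seen. On simulated data for all 13286 genes the noise of each gene was drawn independently, which leaves out variation that genes of real libraries share. In that simulation the group comparison recovered 59.7%, 85.1% and 100% of genes changed by 0.5, 1 and 2 log2 units, and 4.12% of its calls were false. These shares do not apply to the members, whose median spread within groups was 0.81 log2 units, against 0.23 over all genes. Alternatives covered the pseudocount, the filter, scaling, array weights, the variance model, covariates, a rank test, a replicate block and the omission of each library. Podxl was listed at 0 in all 16 libraries, so a 0 can be a failed estimate.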

Additional observations from a re-analysis of the deposited data

Results flagged for a closer look

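Havcr1 in the library labelled RAAS-blocked replicate 4, at 6.20 FPKM, lay far above the other 6 RAAS-blocked libraries, which ran from 0.261 to 0.944 FPKM. On the log2 scale its gap to the next library made up 0.752 of the range of the group, past the 95% critical value of 0.568 for 7 libraries (Dixon). It was the only one among the 20 groups examined (10 genes in 2 groups), and chance alone flags about 5% of groups. The same library had the highest RAAS-blocked values of Spp1 (969.9 FPKM) and Sox9 (0.683 FPKM), the lowest Ren1 (33.5 FPKM) and Aqp2 (17.2 FPKM) of its group and the fewest symbols above 0 (16919). The part of these features in its Havcr1 value was not tested.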

How the results depend on the processing

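In the group comparison 0 of the 9 tested genes were called under any alternative run. The count of called genes was 2 in all, 1 under upper-quartile scaling, quantile normalization, moderation without trend or robust settings, the replicate block, the replicate block with the proximal tubule level, and the proximal tubule or leukocyte level as a covariate, 0 by the exact Wilcoxon test, 11 with array weights and 0 to 4 when 1 library was left out (4 without RAAS-blocked replicate 4 and 4 without untreated replicate 8). With array weights Havcr1 was at -1.35 log2 units (limma adjusted p = 0.160) and Gdf15 at 1.10 log2 units (limma adjusted p = 0.240). Both kept their direction under all alternatives run. With a pseudocount of 0.1 or 5 Havcr1 was at -1.53 or -0.34 log2 units. Krt18 changed sign with array weights (0.017), the replicate block (0.040), the block with the proximal tubule level (0.25), the leukocyte level (0.096) and the distal level (0.031), and Krt8 with array weights (-0.023). Cd44 changed sign with the leukocyte level (-0.14). Leaving out 1 library gave ranges of -0.25 to 0.18 for Krt18, -0.12 to 0.19 for Krt8, -0.34 to 0.014 for Spp1 and -0.021 to 0.50 for Cd44 (log2 units). The causes were not tested.

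For the slopes, RAAS-blocked libraries alone gave 157 called genes for the proximal tubule, 213 for the thick limb, 98 for the distal and 52 for the leukocyte level, with fewer samples, and the replicate block gave 434, 849, 1658 and 51. Of the 9 genes, RAAS-blocked libraries alone called 0 on the distal and 0 on the leukocyte level, untreated libraries alone called 1 on the thick limb level, and the replicate block called 2 on the distal level (Krt8 at 0.60 and Krt18 at 0.75, limma adjusted p = 0.0384 and 0.0132) and 0 on the leukocyte level (Cd44 at 0.70, limma adjusted p = 0.172). Upper-quartile scaling called 5 on the distal level, with Cd44 added (limma adjusted p = 0.0406). Leaving out 1 library gave 675 to 1574 called genes for the proximal tubule level (675 without untreated replicate 4) and 340 to 761 for the leukocyte level (340 without untreated replicate 3), 0 to 66 for the difference between groups, and 2 to 5 of the 9 on the distal, 0 to 3 on the thick limb and 0 to 1 on the proximal tubule level. The distal slope of Havcr1 turned to 0.30 in untreated libraries alone and ran from -0.24 to 0.24 with 1 library left out, and that of Tmsb10 turned to 0.089 in RAAS-blocked libraries alone. With 1 library left out the proximal tubule slope of Havcr1 ran from -0.15 to 0.091 and the leukocyte slope of Gdf15 from -0.047 to 0.16. Same-numbered libraries correlated in their deviations at -0.28 to 0.43 and only number 6 correlated best with its own number, so the numbers were not taken to pair mice. With 7 and 9 libraries and unknown depth, differences below the intervals given are not resolved.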
